A study of Sus scrofa with 18 samples.

Results

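Pig kidneys that had been transplanted without any carbon monoxide treatment and taken 24 h later were compared with kidneys that had never been transplanted. The comparison used 6 of the 18 arrays of the study: the 4 whose source was given as an untreated, transplanted kidney at 24 h, and the 2 of untreated kidneys that were not transplants, called naive. Total RNA of kidney was hybridised to Affymetrix pig arrays. The 4 grafts came from donors numbered 5 to 8 and are called grafts 5 to 8 here. Their treatment field reads air, as it does for the grafts given carbon monoxide, so that groups were taken from the titles. The treatment field of the naive kidneys reads naive, and their donor and time fields read none. The breed, age and sex of the animals, the time in cold storage and the recipients were not given in the sources used here. The other groups of the study were untreated grafts at 4 h (donors 1 to 4), which are used below for a test of time, and grafts treated with carbon monoxide at both times. The labels do not say that each graft had a recipient of its own.

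A transplanted kidney is cut off from blood, cooled and then reperfused, and the cells hit hardest are those of the proximal tubule, which take back filtered sugar, amino acids, phosphate and protein and depend on fatty acid oxidation for energy. Injured tubule cells are known to lose their transporters and enzymes, spread and turn on embryonic and wound genes, while the endothelium and leukocytes that enter the graft add cytokines, chemokines and interferon-induced proteins. In the following hours surviving tubule cells re-enter the cell cycle. In RNA of whole tissue, fewer cells of a type and less RNA per cell cannot be told apart.

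Levels are log2 values that the authors had normalised between arrays by RMA, and each difference is the mean of the 4 grafts minus the mean of the 2 naive kidneys on that scale, so 1 is a doubling. Errors after ± are standard errors from the linear model, n is 4 against 2 unless 4 h grafts are named, and a gene is said to have risen or fallen only where its adjusted p was under 0.05. Of 23999 probe sets, 3494 passed (14.6%), 1629 higher and 1865 lower. With 1 probe set for each of the 6765 named genes, the brightest over all arrays, 825 genes rose (12.2%) and 727 fell (10.7%), and the median difference over all of them was 0.05. These 2 shares are the background for every count of a list below. Among genes that passed, 9 rose and 13 fell by more than 4, and 146 rose and 180 fell by more than 2. Calls were most frequent among bright genes: 19.3% of the brightest quintile rose and 18.2% fell, against 2.22% and 3.84% of the dimmest quintile. Arrays have no read depth, so the number of arrays limits the precision.

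Grafts 5, 6 and 7 had mean correlations with the rest of their group of 0.980, 0.981 and 0.979, while graft 8 had 0.966. Its 28S ribosomal RNA probe set read 10.19 against 5.80 to 6.28 in the other grafts, and its bioB hybridisation control 7.18 against 5.5 to 5.82. Naive arrays 1 and 2 read 7.99 and 7.47 for 28S and 6.66 and 6.15 for bioB. On both controls grafts 5, 6 and 7 thus lay below the naive arrays and graft 8 above them. The part of this in the differences from naive was not tested. Graft 8 lay nearest to the naive kidneys for 1699 of the 3494 passing probe sets, and graft 6 lay farthest for 1515. Medians without graft 8 are therefore given for the chemokine, interferon, class II, macrophage, lymphocyte (T, NK and B cell), replication and mitosis lists. Dates in the names of the array files, whose meaning is not stated, set naive array 1 in one batch, naive array 2 with graft 5 in another and grafts 6 to 8 in the last, so that graft 5 minus naive array 2 is the only difference within a batch. With that date as a block 159 probe sets passed, 47 higher and 112 lower. All 316 probe sets of named genes that passed kept their direction under that block and 37 of them still passed, MMP7, CLDN6, CLU, MCM2, NQO1, LRP2, MIOX and DPYS among them. The kept direction is no separate test, because these genes were chosen from the same arrays for passing. Differences of genes that no longer passed could be as large under the block, as in 4 examples chosen after their values were seen: 4.82 for CCL2 (adjusted p = 0.198, 4.42 without the block), 3.99 for CCR1 (0.199, 4.27 without), 3.26 for IRF1 (0.0938, 3.37 without) and 3.1 for TIMP1 (0.263, 3.53 without). Others were much smaller under the block, as in examples chosen in the same way. CYP2A19 differed by -2.24 (0.69, -4.70 without) and HSD11B2 by -0.53 (0.576, -1.63 without). SLC2A3 differed by 1.825 (0.479, 3.08 without) and CD3D by 0.85 (0.635, 1.67 without). Calls were fewest without a naive array: 903 probe sets passed without naive array 1 and 1214 without naive array 2. At the end of each paragraph stand the counts that changed by a large factor with 1 array left out, and the genes that then did not pass, with the adjusted p (or its range over those arrays) in parentheses. Of 7 kidney markers, the proximal tubule genes LRP2 and MIOX were measured, and both naive arrays read above 10 for each.

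The largest rise was that of MMP7, matrilysin, a matrix protease that injured tubules secrete. Its level was 3.61 and 4.63 on the naive arrays and 11.46, 11.53, 10.48 and 11.39 in the grafts of donors 5 to 8, a difference of 7.10 ± 0.80, adjusted p = 0.000142. The groups lay more than 5 log2 units apart and the 4 grafts were closer to each other than to either naive array. UBD, a ubiquitin-like protein induced by interferon gamma and TNF, read 4.5 and 5.57 on the naive arrays and 8.96, 9.92, 10.23 and 8.85 in the grafts of donors 5 to 8 (4.46 ± 0.74, adjusted p = 0.00119). CLDN6, a claudin of embryonic tight junctions, was 1.74 and 1.89 in the naive kidneys, against 5.82, 5.88, 6.34 and 6.38 in grafts 5 to 8 (4.29 ± 0.48, adjusted p = 0.000142), with naive levels just above the background of 1.61 set by the array's tag controls. Graft 8, the closest to naive for many genes, had the highest CLDN6 level of the 4.

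CCL2, the chemokine that draws monocytes, was 4.15 and 5.18 on the naive arrays and 9.52, 9.51, 9.38 and 7.92 in the grafts of donors 5 to 8 (4.42 ± 1.08, adjusted p = 0.0123), and CCR1, a chemokine receptor of myeloid cells, was 1.5 and 2.09 in the naive kidneys, against 6.08, 6.89, 6.16 and 5.13 in grafts 5 to 8 (4.27 ± 0.93, adjusted p = 0.00625). Graft 8 had the lowest level of both, still above each naive kidney. TNFRSF12A, the receptor of TWEAK, rose at both of its probe sets (4.24 at one and 2.87 at the brighter). NPM3, a nucleolar histone chaperone (4.07 ± 0.70, adjusted p = 0.00155), and ZFAND2A, a heat- and arsenite-induced protein that binds the proteasome (4.04 ± 1.17, adjusted p = 0.0291), followed. UCHL1, a deubiquitinating enzyme best known from neurons, went from 2.5 and 2.65 to between 5.86 and 7.04, and LRP8, a receptor of apolipoprotein E and reelin, rose by 3.71. STEAP4, a metal reductase, was at least 15.64-fold higher and ARG1, arginase 1, at least 13.45-fold higher than naive kidneys, in which the mean of each was below background. FAM26F, an interferon-inducible membrane protein, rose by 3.79, and its level of 4.39 in graft 8 was far below the 7.41 to 8.59 of the others. CCR1 (0.0863) did not pass without naive array 1. CCL2 (0.0577 to 0.147), TNFRSF12A (0.0588 to 0.0677) and STEAP4 (0.0533 to 0.0613) did not pass without either naive array. ZFAND2A (0.0545 to 0.173) and ARG1 (0.0581 to 0.186) did not pass without either naive array or graft 5 or 6. FAM26F (0.0622 to 0.214) did not pass without either naive array or graft 5, 6 or 7.

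**Figure D1:**
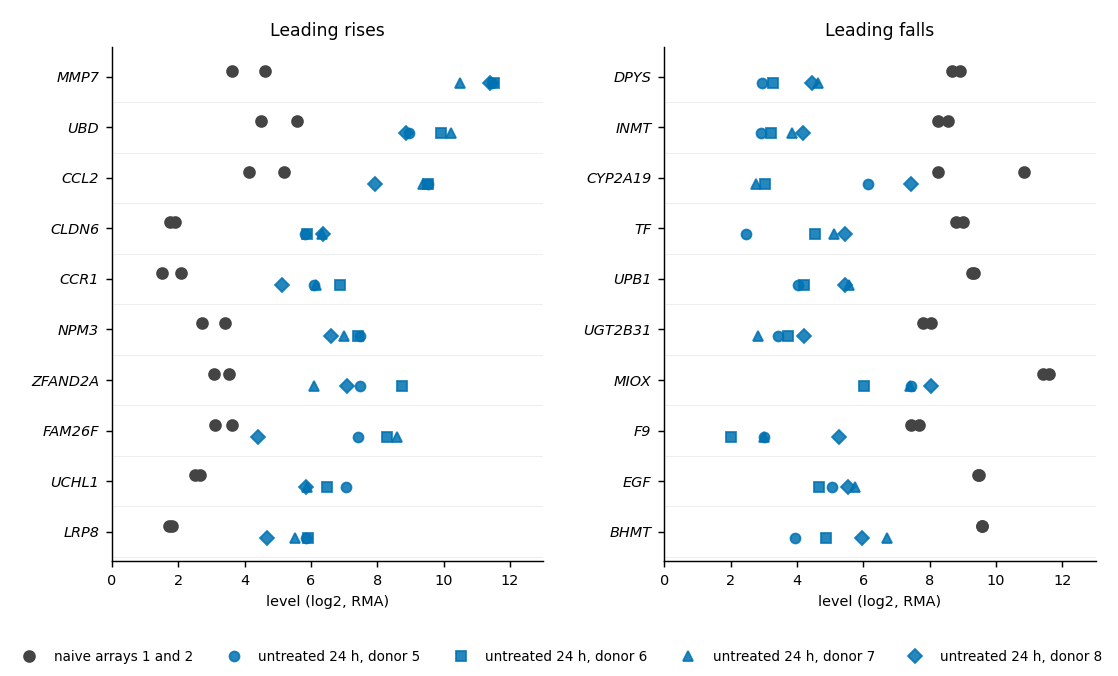
Level on each naive array (grey) and in each untreated 24 h graft (blue, 1 symbol per donor) of 10 genes among the leading rises and 10 among the leading falls, in log2 units after RMA. MMP7 moved from 3.61 and 4.63 to between 10.48 and 11.53, and DPYS from 8.91 and 8.67 to between 2.94 and 4.65. No graft overlaps the naive arrays for any of the 20.

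Among the leading falls DPYS, dihydropyrimidinase, read 8.91 and 8.67 on the naive arrays and 2.94, 3.28, 4.65 and 4.45 in the grafts of donors 5 to 8 (-4.96 ± 0.59, adjusted p = 0.00017). UPB1, the next enzyme of the same pyrimidine pathway, read 9.28 and 9.35 in the naive kidneys, against 4.04, 4.21, 5.58 and 5.45 in grafts 5 to 8 (-4.49 ± 0.62, adjusted p = 0.000393). For both, grafts 5 and 6 were lower than grafts 7 and 8, and the groups were more than 3 log2 units apart. INMT, an amine methyltransferase (-4.85 ± 0.62, adjusted p = 0.000225), the porcine cytochrome P450 CYP2A19 (-4.70 ± 1.52, adjusted p = 0.0476) and the glucuronosyltransferase UGT2B31 (-4.37 ± 0.94, adjusted p = 0.00567) also fell. CYP2A19 varied widely, from 8.26 to 10.83 in the naive kidneys and from 2.78 to 7.42 in the grafts. UGT2B31 (0.0508 to 0.0705) did not pass without either naive array. CYP2A19 (0.0517 to 0.39) did not pass without either naive array or graft 5, 6 or 7.

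TF, which codes for the iron carrier transferrin, was 9.0 and 8.80 on the naive arrays and 2.47, 4.56, 5.13 and 5.46 in the grafts of donors 5 to 8 (-4.5 ± 1.01, adjusted p = 0.00729). F9, coagulation factor IX, was 7.44 and 7.68 in the naive kidneys, against 3.00, 2.02, 2.99 and 5.28 in grafts 5 to 8 (-4.24 ± 0.88, adjusted p = 0.00489). Graft 5 had the lowest TF level and graft 6 the lowest F9 level, and graft 8 had the highest of both. EGF, made by the thick limb and the distal convoluted tubule, read 9.48 and 9.45 on the naive arrays and 5.06, 4.65, 5.76 and 5.53 in the grafts of donors 5 to 8 (-4.22 ± 0.60, adjusted p = 0.000481). AQP1, the water channel of the proximal tubule and thin limb, fell at both probe sets, by 3.95 and by 3.16 at the brighter. VNN1, an apical pantetheinase (-4.19), ETNPPL, which breaks down phosphoethanolamine (-4.10), and HAO1, peroxisomal glycolate oxidase (-4.08), fell by similar amounts. HAO1 split the grafts, with 3.01 and 2.87 in grafts 5 and 6 and 5.98 and 6.33 in grafts 7 and 8, against 8.63 in both naive kidneys. VNN1 (0.062) did not pass without naive array 1. TF (0.0589 to 0.0809), F9 (0.0518 to 0.0555) and HAO1 (0.0928 to 0.11) did not pass without either naive array.

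Many proximal tubule transporters fell. Of 9 measured amino acid and peptide transporters, 6 fell and none rose (median -1.58), the renal peptide transporter SLC15A2 (-2.60) and SLC7A7 (-2.30), the basolateral carrier of lysine and arginine, most. Both subunits of the cystine carrier, SLC7A9 (-2.18) and SLC3A1 (-1.58), were among them, as was TMEM27, collectrin, which brings amino acid carriers to the brush border (-2.21). Of 7 genes of sugar, phosphate and bicarbonate transport, 3 fell: SLC17A1 (-3.30), SLC4A4 (-2.17) and SLC9A3R1 (-1.15), a urate and phosphate carrier, the basolateral bicarbonate carrier and the scaffold NHERF1. The organic anion carriers SLC22A6 (-3.83 ± 0.61, adjusted p = 0.000989) and SLC22A8 (-2.96) and the cation carrier SLC22A2 (-2.23) fell, while the carnitine carrier SLC22A5 rose (1.43) and the other 6 of 10 genes of organic ion transport did not pass (median 0.28). Falls among genes of amino acid transport numbered 2 without naive array 1 and 3 without naive array 2. Falls among genes of sugar and phosphate transport numbered 1 without either naive array. TMEM27 (0.157) did not pass without naive array 1. SLC3A1 (0.0758 to 0.155) and SLC9A3R1 (0.0703 to 0.145) did not pass without either naive array. SLC7A9 (0.0599 to 0.135) did not pass without either naive array or graft 6. SLC22A2 (0.0631 to 0.298) did not pass without either naive array or graft 5 or 6. SLC4A4 (0.0593 to 0.296) and SLC22A5 (0.0774 to 0.236) did not pass without either naive array or graft 5, 6 or 7.

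Uptake of filtered protein depends on megalin, LRP2, whose level was 10.20 and 10.09 on the naive arrays and 6.12, 6.33, 7.88 and 6.95 in the grafts of donors 5 to 8 (-3.32 ± 0.48, adjusted p = 0.000498). Grafts 5 and 6 were lowest and no graft came within 2 log2 units of a naive kidney. AMN, amnionless, which carries cubilin to the membrane (-3.04 ± 0.43, adjusted p = 0.000466), CLCN5, the chloride-proton exchanger of tubular endosomes (-1.44), the megalin chaperone LRPAP1 (-1.10) and the lysosomal cystine exporter CTNS (-0.78) completed the 5 of 9 endocytosis genes that fell (median -0.93). Of 13 brush border hydrolases, 12 fell and 1 rose (median -2.18). DPEP1, renal dipeptidase, read 9.77 and 9.77 in the naive kidneys, against 6.83, 5.37, 6.13 and 6.06 in grafts 5 to 8 (-3.67 ± 0.42, adjusted p = 0.000142), so that graft 5 kept the most. MEP1B (-2.97), XPNPEP2 (-2.87), CNDP1 (-2.44), GGT1 (-2.30) and ACE (-1.35) fell with it, and the 1 gene that rose was CNDP2, a cytosolic dipeptidase, named after its value was seen. Falls among endocytosis genes numbered 3 without naive array 1. Brush border genes gave 6 falls without naive array 1, and for rises 0 without naive array 1 or graft 7. CLCN5 (0.117), CTNS (0.178) and ACE (0.0779) did not pass without naive array 1. MEP1B (0.0681) did not pass without naive array 2.

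The enzymes that make the proximal tubule a site of glucose synthesis fell almost together. Of 12 genes of gluconeogenesis and fructose use, 11 fell (median -2.26, within the batch -2.19). PC, pyruvate carboxylase, read 9.15 and 9.44 on the naive arrays and 5.46, 5.33, 6.06 and 6.90 in the grafts of donors 5 to 8 (-3.36 ± 0.43, adjusted p = 0.000228), and FBP1, fructose bisphosphatase, 11.43 and 11.47 in the naive kidneys, against 7.65, 8.27, 8.73 and 9.23 in grafts 5 to 8 (-2.98 ± 0.48, adjusted p = 0.000992). PCK1, the cytosolic phosphoenolpyruvate carboxykinase, stood at 11.86 and 11.18 on the naive arrays and 5.90, 8.69, 9.48 and 9.65 in the grafts of donors 5 to 8 (-3.09 ± 0.80, adjusted p = 0.0158). Graft 5 had lost far more PCK1 than the other 3, which was not so for PC or for the mitochondrial PCK2 (-3.31), where the grafts were closer together. Fructokinase, KHK (-2.86), and sorbitol dehydrogenase, SORD (-2.37), fell too. Falls among genes of gluconeogenesis numbered 6 without naive array 1 and 7 without naive array 2. PCK1 (0.0709 to 0.165) did not pass without either naive array.

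Among 32 enzymes of amino acid and one-carbon breakdown, 26 fell and none rose (median -2.24), against 10.7% of all genes. With any 1 of the 6 arrays left out 21 to 25 fell. BHMT, which remethylates homocysteine with betaine, was 9.57 and 9.57 on the naive arrays and 3.96, 4.87, 6.71 and 5.96 in the grafts of donors 5 to 8 (-4.2 ± 0.75, adjusted p = 0.00188). The D-amino acid oxidases DAO (-3.71 ± 0.66, adjusted p = 0.00188) and DDO (-3.70), agmatinase, AGMAT (-3.52 ± 0.44, adjusted p = 0.000199), and DDC, which makes renal dopamine (-3.44 ± 0.49, adjusted p = 0.000479), followed. HPD, of tyrosine breakdown, was at least 9.0-fold lower in the grafts, where its mean lay below background. Of 10 genes of pyrimidine, purine and inositol breakdown 7 fell (median -1.67): beside DPYS and UPB1 they included DPYD, the first enzyme of that pathway (-1.86), CRYL1 and AKR1A1 of the glucuronate route (-2.87 and -1.48), and MIOX, the inositol oxygenase, which stood at 11.41 and 11.59 in the naive kidneys, against 7.43, 6.02, 7.41 and 8.05 in grafts 5 to 8 (-4.27 ± 0.49, adjusted p = 0.000143). DPYD (0.0928) did not pass without naive array 1. AKR1A1 (0.0581) did not pass without naive array 2. HPD (0.0655 to 0.232) did not pass without either naive array or graft 5, 6 or 7.

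Of 34 drug and conjugation enzymes, 18 fell and none rose (median -1.67), with CYP2D25 (-3.70), CES3 (-2.79) and FMO5 (-2.76), a cytochrome P450, a carboxylesterase and a flavin monooxygenase, after the 3 already named. By gene family, 7 of 11 aldehyde dehydrogenases, 6 of 28 cytochromes P450 and 3 of 8 glutathione transferases fell and none rose. The leading members of the first and the last were ALDH1B1 (-2.81), ALDH1L1 (-2.77), ALDH4A1 (-2.26) and GSTZ1 (-2.96). Falls among drug enzymes numbered 8 without naive array 1. Falls among aldehyde dehydrogenases numbered 2 without naive array 1. Falls among cytochromes P450 numbered 3 without either naive array or graft 5 or 6. FMO5 (0.144) and ALDH1B1 (0.0767) did not pass without naive array 1.

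Enzymes of fatty acid oxidation fell in mitochondria and peroxisomes. Of 17 peroxisome and ketone genes 13 fell and none rose (median -1.88): AMACR, the racemase of branched-chain acids (-3.41 ± 0.63, adjusted p = 0.0025), PHYH, which starts the breakdown of phytanic acid (-3.05 ± 0.50, adjusted p = 0.00114), the thiolase ACAA1 (-2.43 ± 0.40, adjusted p = 0.00116) and the oxidase ACOX2 (-2.13) were in front. PDK4, the kinase that turns off pyruvate dehydrogenase, read 10.69 and 8.55 in the naive kidneys, against 5.54, 8.53, 5.30 and 8.15 in grafts 5 to 8 (-2.74 ± 0.81, adjusted p = 0.0319). Grafts 6 and 8 had PDK4 levels near that of naive array 2, and grafts 5 and 7 were about 3 log2 units lower. Of 28 genes of the carnitine shuttle and mitochondrial oxidation, 14 fell and 3 rose (median -0.77), and 7 of 9 acyl-CoA dehydrogenases fell (median -1.53). The enoyl-CoA isomerase ECI1 was 9.12 and 9.15 on the naive arrays and 7.10, 6.54, 7.03 and 7.20 in the grafts of donors 5 to 8 (-2.17 ± 0.25, adjusted p = 0.000144), a narrow spread within both groups. Among the rises was ACSL5, an acyl-CoA synthetase (2.51 ± 0.44, adjusted p = 0.00178). Falls among peroxisome genes numbered 7 without naive array 1. Genes of fatty acid oxidation gave 9 falls without naive array 1, and for rises 1 without naive array 2. Falls among acyl-CoA dehydrogenases numbered 3 without naive array 1. ACOX2 (0.0628 to 0.117) did not pass without either naive array. PDK4 (0.077 to 0.41) did not pass without naive array 1 or graft 5 or 7.

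In the citrate cycle 7 of 22 genes fell and none rose (median -0.58), and 3 of these are subunits of succinate dehydrogenase. SDHC fell by 2.02 and SDHA by 1.26 on the log2 scale. SDHB read 10.45 and 10.44 on the naive arrays and 9.57, 9.35, 9.5 and 9.40 in the grafts of donors 5 to 8 (-0.99 ± 0.19, adjusted p = 0.00315) at its brightest probe set, while another of its probe sets was called the other way. PDHA1 of pyruvate dehydrogenase (-1.45) and the succinyl-CoA ligase subunits SUCLG2 (-1.38) and SUCLG1 (-0.78) fell as well. In the respiratory chain 8 of 32 subunits of complex I fell, led by NDUFV1 (-1.10) and NDUFS1 (-1.10), as did 2 of 8 of cytochrome c oxidase, COX7A1 (-2.03 ± 0.30, adjusted p = 0.000559) and COX7C (-0.55), and 1 of 14 of ATP synthase. The share of ATP synthase lay below the 10.7% of all genes. Falls among genes of the citrate cycle numbered 4 without naive array 1. Falls among subunits of complex I numbered 1 without naive array 2, 2 without naive array 1, 4 without graft 6 and 5 without graft 7. Falls among subunits of cytochrome c oxidase numbered 1 without either naive array or graft 5, 6 or 7. Falls among subunits of ATP synthase numbered 0 without either naive array. PDHA1 (0.14) and SUCLG2 (0.0716) did not pass without naive array 1. SUCLG1 (0.0899) did not pass without naive array 2. NDUFS1 (0.0738 to 0.186) did not pass without either naive array. COX7C (0.0542 to 0.197) did not pass without either naive array or graft 5, 6 or 7.

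Of 14 transcription factors and nuclear receptors of the nephron, 4 fell and none rose (median -0.41): KLF15 (-2.25), the pregnane X receptor NR1I2 (-1.77 ± 0.30, adjusted p = 0.00135), HNF4A, the main regulator of proximal tubule genes (-1.71 ± 0.41, adjusted p = 0.0102), and LHX1 (-1.20). HNF4A stood at 8.89 and 9.23 in the naive kidneys, against 7.14, 7.14, 7.95 and 7.16 in grafts 5 to 8, with graft 7 higher than the other 3. Falls among transcription factors numbered 1 without either naive array. KLF15 (0.0554 to 0.148) and HNF4A (0.0648 to 0.108) did not pass without either naive array. LHX1 (0.0555 to 0.289) did not pass without either naive array or graft 6.

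Of 15 thick limb and distal convoluted tubule genes 6 fell and none rose (median -0.69). Beside EGF these were the parathyroid hormone receptor PTH1R (-2.79 ± 0.39, adjusted p = 0.000466), the sodium pump subunits FXYD2 (-1.63) and ATP1B1 (-1.0) and the kinases WNK4 (-1.54) and WNK1 (-1.25), which set salt reabsorption. Of 12 collecting duct genes 4 fell (median -0.93): HSD11B2, which protects the mineralocorticoid receptor from cortisol, read 9.04 and 9.70 on the naive arrays and 8.83, 7.23, 7.62 and 7.26 in the grafts of donors 5 to 8 (-1.63 ± 0.36, adjusted p = 0.00631), with graft 5 near the naive range. The ammonia channel RHBG (-1.48) and the sodium channel subunits SCNN1B (-1.01) and SCNN1A (-0.88) were the others, and SCNN1A differed by 0.08 in the other direction within the batch. None of 7 podocyte and glomerular genes passed (median -0.41), and the smallest p belonged to IGFBP2 (-1.22, adjusted p = 0.228). Falls among thick limb genes numbered 2 without naive array 2 and 3 without naive array 1. Falls among collecting duct genes numbered 1 without naive array 2 and 2 without naive array 1. WNK4 (0.0577), HSD11B2 (0.11) and RHBG (0.0958) did not pass without naive array 2. FXYD2 (0.0667 to 0.0817) and SCNN1B (0.0802 to 0.136) did not pass without either naive array. WNK1 (0.0571 to 0.258) did not pass without either naive array or graft 6. SCNN1A (0.0579 to 0.609) did not pass without naive array 1 or graft 6, 7 or 8. ATP1B1 (0.0502 to 0.211) did not pass without either naive array or graft 6 or 8.

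Genes of renal hormones and vasoactive enzymes gave 9 falls and 1 rise among 26 (median -0.43). KLK1, tissue kallikrein, was 9.45 and 9.80 in the naive kidneys, against 7.22, 5.29, 6.55 and 6.71 in grafts 5 to 8 (-3.18 ± 0.58, adjusted p = 0.00217), and its substrate kininogen, KNG1, fell as well (-2.78 ± 0.50, adjusted p = 0.00204). CYP27B1, which makes active vitamin D, fell by 1.13 (adjusted p = 0.0284), the growth hormone receptor GHR by 1.68 and IGFBP5 by 1.83. Hormone genes gave 4 falls without naive array 1, and for rises 0 without either naive array or graft 6 or 7. IGFBP5 (0.0954 to 0.135) did not pass without either naive array. CYP27B1 (0.056 to 0.29) did not pass without either naive array or graft 5 or 6.

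**Figure D2:**
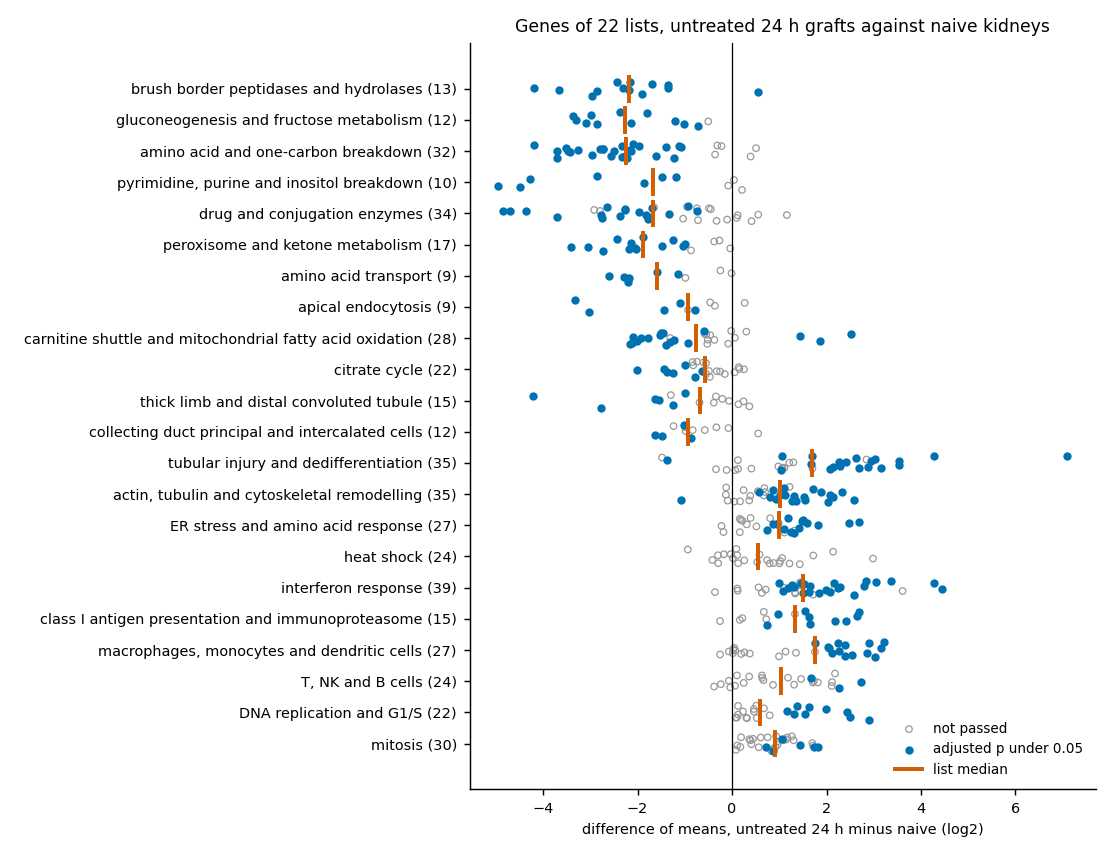
Difference between the mean of the untreated 24 h grafts and that of the naive kidneys, in log2 units, for each measured gene (1 point, its brightest probe set) of 22 lists, with the number of measured genes after each name. Filled points passed an adjusted p under 0.05, open points did not, and the bar is the list median. Medians run from -2.26 for gluconeogenesis and fructose metabolism to 1.76 for macrophages, monocytes and dendritic cells, and MMP7 lies alone at 7.10.

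Genes that mark injured or dedifferentiated tubules rose. Of 35 measured, 19 rose and 1 fell (median 1.69, within the batch 1.91), against 12.2% and 10.7% of all genes. HAVCR1 and LCN2, the best known of these markers, were not among the measured genes. CLU, clusterin, a chaperone secreted by injured epithelium, was 8.16 and 8.41 on the naive arrays and 11.65, 11.60, 10.99 and 11.51 in the grafts of donors 5 to 8 (3.16 ± 0.36, adjusted p = 0.000144). SPP1, osteopontin, read 8.55 and 8.4 in the naive kidneys, against 12.13, 11.83, 11.68 and 12.44 in grafts 5 to 8 (3.54 ± 0.51, adjusted p = 0.000513). All 4 grafts were high for both and graft 8 was not the lowest for either. TIMP1 (3.53), ADAMTS1 (3.02), ANXA2 (2.95), KRT18 (2.70) and VCAM1 (2.29) also rose: the protease inhibitor TIMP1, a secreted metalloprotease, an annexin, a keratin of simple epithelia and an adhesion molecule of failing tubules and endothelium. Injury markers gave 8 rises without naive array 2 and 9 without naive array 1, and for falls 0 without either naive array and 2 without graft 8. TIMP1 (0.0755 to 0.113), ADAMTS1 (0.0928 to 0.0986) and KRT18 (0.0559 to 0.106) did not pass without either naive array. VCAM1 (0.0541 to 0.18) did not pass without either naive array or graft 6 or 7.

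MYC, which drives growth and proliferation, read 4.65 and 4.64 on the naive arrays and 7.12, 7.65, 7.01 and 7.32 in the grafts of donors 5 to 8 (2.63 ± 0.51, adjusted p = 0.00315), and the cell cycle inhibitor CDKN1A 3.77 and 4.10 in the naive kidneys, against 6.44, 6.77, 5.83 and 6.31 in grafts 5 to 8 (2.40 ± 0.54, adjusted p = 0.00761). LDHA, counted with the glycolysis genes, was 6.87 and 6.72 on the naive arrays and 9.05, 9.31, 8.87 and 10.42 in the grafts of donors 5 to 8 (2.62 ± 0.44, adjusted p = 0.00139), highest in graft 8. Of 35 genes of actin, tubulin and their partners 21 rose and 1 fell (median 1.01). TUBB (2.59 ± 0.33, adjusted p = 0.000228) and TUBA1B (2.32 ± 0.31, adjusted p = 0.000337), tubulins, led, before TMSB10 (2.14), ARPC1B (2.08), CAPG (2.04) and ACTN1 (1.89), which bind or branch actin. The gene that fell, named after its value was seen, was VIL1, villin, of the brush border core. Of 17 junction genes CLDN6 alone passed (median 0.19). Cytoskeletal genes gave 6 rises without naive array 1 and 7 without naive array 2, and for falls 0 without either naive array or graft 6. ACTN1 (0.0539) did not pass without naive array 1. CDKN1A (0.0519 to 0.0975) and ARPC1B (0.0568 to 0.104) did not pass without either naive array.

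Of 43 genes of matrix and its proteases 6 rose and none fell (median 0.22), a share of rises near the 12.2% of all genes, and those that rose were proteases, their inhibitors and a growth factor: MMP7, TIMP1, ADAMTS1, the urokinase PLAU (2.68), TGFB1 (2.59) and TIMP2 (2.14). None of 15 collagen genes passed (median 0.09), the smallest p being that of COL5A1 (0.84, adjusted p = 0.183). Rises among matrix genes numbered 1 without either naive array. TGFB1 (0.108 to 0.13) and TIMP2 (0.0746 to 0.15) did not pass without either naive array. PLAU (0.0508 to 0.169) did not pass without either naive array or graft 5, 6 or 7.

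Of 18 chemokines 6 rose and none fell (median 1.32). After CCL2 came CCL8, another monocyte chemokine, at 2.2 and 3.57 on the naive arrays and 6.58, 6.77, 7.00 and 3.93 in the grafts of donors 5 to 8 (3.19 ± 0.77, adjusted p = 0.0111), and graft 8 lay closer to naive array 2 than to the other grafts. CXCL16, which binds a receptor of activated T and NK cells and is also a scavenger receptor, was 7.27 and 7.21 in the naive kidneys, against 8.85, 8.89, 9.61 and 9.62 in grafts 5 to 8 (2.01 ± 0.28, adjusted p = 0.000466), and here grafts 7 and 8 were highest. CCL4 (2.03) and CCL3L1 (1.51) rose, although CCL3L1 in graft 8 lay within the naive range. CXCL8, interleukin 8, was at least 3.74-fold higher, its naive level being below background. Without graft 8 the chemokine median was 1.72. Of 6 chemotactic receptors only CCR1 passed. Rises among chemokines numbered 1 and 2 without naive array 1 or 2 in that order and 3 without graft 6. CCL8 (0.179) did not pass without naive array 1. CCL4 (0.0562 to 0.252) did not pass without either naive array or graft 6 or 7. CCL3L1 (0.0796 to 0.39) did not pass without either naive array or graft 5, 6 or 7. CXCL8 (0.0555 to 0.226) did not pass without either naive array or graft 5, 6 or 8.

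Of 37 interleukins, TNF family members and receptors 9 rose and none fell (median 0.70). TNFRSF1B, the second TNF receptor, was 4.46 and 5.15 on the naive arrays and 7.80, 8.30, 8.02 and 7.75 in the grafts of donors 5 to 8 (3.16 ± 0.52, adjusted p = 0.00119), with 4 similar grafts. IL1B stood at 3.82 and 3.51 in the naive kidneys, against 6.26, 5.97, 5.77 and 4.93 in grafts 5 to 8 (2.07 ± 0.47, adjusted p = 0.0081), lowest in graft 8. The receptors IL2RG (2.73), IL4R (1.75), IL27RA (1.85) and IL13RA1 (1.52) and the costimulator CD40 (2.15) rose. TNF itself differed by 0.72 (adjusted p = 0.159), NOS2 by 0.25 (adjusted p = 0.481) and VEGFA by -0.41 (adjusted p = 0.58), and none of these passed. IL6 had a naive mean below background and graft levels of 2.10, 1.65, 1.76 and 1.56, and did not pass (adjusted p = 0.765). Among adhesion genes 6 of 15 rose and 1 fell: ICAM1, the endothelial ligand of leukocyte integrins, was 4.77 and 5.28 on the naive arrays and 7.55, 7.54, 7.73 and 6.87 in the grafts of donors 5 to 8 (2.40 ± 0.45, adjusted p = 0.00253). Its leukocyte partner ITGB2 (2.73), ICAM2 (1.96), PECAM1 (1.06) and CD47, a signal against phagocytosis (1.81 ± 0.28, adjusted p = 0.00077), rose with it. Of 18 genes of innate sensing 3 rose, a share not far above the 12.2% of all genes: caspase 1, CASP1 (3.14), the kinase IRAK1 (1.6) and the alarmin HMGB1 (0.69). Rises among interleukins and the TNF family numbered 1 without naive array 1 and 2 without naive array 2. Adhesion genes gave 1 and 2 rises without naive array 1 or 2 in that order and 3 without graft 6, and for falls 0 without either naive array. Rises among genes of innate sensing numbered 0 and 1 without naive array 1 or 2 in that order and 6 without graft 8. IL27RA (0.145), ICAM1 (0.0557) and IRAK1 (0.107) did not pass without naive array 1. IL1B (0.0609 to 0.0884), IL4R (0.0505 to 0.053), IL13RA1 (0.104 to 0.175), ICAM2 (0.0568 to 0.131) and CASP1 (0.0558 to 0.145) did not pass without either naive array. ITGB2 (0.0524 to 0.249) did not pass without either naive array or graft 6. IL2RG (0.0902 to 0.303), CD40 (0.0661 to 0.256) and HMGB1 (0.0585 to 0.23) did not pass without either naive array or graft 5, 6 or 7. PECAM1 (0.0848 to 0.248) did not pass without either naive array or graft 5, 6 or 8.

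Of 39 interferon-response genes 23 rose and none fell (median 1.5, within the batch 1.12). IRF1, a transcription factor induced by interferon gamma, was 4.78 and 5.49 on the naive arrays and 8.71, 8.92, 9.40 and 6.98 in the grafts of donors 5 to 8 (3.37 ± 0.62, adjusted p = 0.0023). GBP1, a GTPase that attacks intracellular pathogens, read 5.21 and 6.55 in the naive kidneys, against 10.28, 10.66, 11.40 and 8.30 in grafts 5 to 8 (4.28 ± 0.85, adjusted p = 0.00353) at its brighter probe set. GBP2 (3.05), the nucleotide hydrolase SAMHD1 (2.85) and ISG15, a ubiquitin-like modifier (2.79 ± 0.48, adjusted p = 0.00151), rose too. For IRF1, GBP1, GBP2 and SAMHD1 the order of the grafts was the same, graft 7 highest and graft 8 lowest. The mean level of the whole list above the naive mean was 1.72, 2.02, 2.5 and 0.77 in grafts 5 to 8. Without graft 8 the interferon median was 1.81, and 30 genes rose. Rises among interferon genes numbered 1 and 8 without naive array 1 or 2 in that order and 11 without graft 6 or 7. IRF1 (0.0521), GBP1 (0.0794) and ISG15 (0.054) did not pass without naive array 1. GBP2 (0.0543 to 0.168) and SAMHD1 (0.0512 to 0.14) did not pass without either naive array or graft 6 or 7.

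Class I presentation rose with them: of 15 genes 9 rose and none fell (median 1.33). PSMB10, an immunoproteasome subunit, was 4.93 and 5.59 on the naive arrays and 8.04, 8.18, 8.36 and 7.23 in the grafts of donors 5 to 8 (2.69 ± 0.55, adjusted p = 0.00424), and PSME2, of the PA28 activator that interferon gamma induces, 7.01 and 7.53 in the naive kidneys, against 9.53, 10.02, 10.18 and 8.96 in grafts 5 to 8 (2.41 ± 0.39, adjusted p = 0.0011). PSMB8 (2.66), the peptide transporter TAP1 (2.18), tapasin, TAPBP (1.62), and the non-classical class I gene SLA-7 (1.64) rose. Class II presentation and costimulation gave 4 rises among 19 (median 0.96): CTSS, the cathepsin that trims the invariant chain, at 7.14 and 7.53 on the naive arrays and 9.63, 10.26, 10.13 and 10.04 in the grafts of donors 5 to 8 (2.68 ± 0.29, adjusted p = 0.000142), and CD40, IFI30 (1.5) and CD86 (1.36). The class II list mean was 0.05 above naive in graft 8 and between 0.95 and 1.21 in the others, and its median without graft 8 was 1.34. Rises among class I genes numbered 1 without naive array 1 and 4 without naive array 2. Rises among class II genes numbered 1 without either naive array or graft 6 or 7 and 2 without graft 5. PSMB10 (0.0804) and SLA-7 (0.185) did not pass without naive array 1. PSMB8 (0.0545 to 0.184) and TAPBP (0.0554 to 0.233) did not pass without either naive array. CD86 (0.0588 to 0.195) did not pass without either naive array or graft 6 or 7. TAP1 (0.0645 to 0.281) and IFI30 (0.0548 to 0.459) did not pass without either naive array or graft 5, 6 or 7.

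Of 16 subunits of the proteasome core 15 rose (median 1.14, within the batch 1.14), and of 22 subunits of its regulators 16 rose and none fell (median 0.74), against 12.2% of all genes. PSMB4, a constitutive core subunit, was 8.39 and 8.58 on the naive arrays and 9.76, 9.80, 9.93 and 9.59 in the grafts of donors 5 to 8 (1.28 ± 0.16, adjusted p = 0.000225), and PSMB2 8.18 and 8.33 in the naive kidneys, against 9.86, 9.66, 9.62 and 9.24 in grafts 5 to 8 (1.34 ± 0.20, adjusted p = 0.000625). PSMB3 (1.69), PSMA5 (1.6), the deubiquitinase of the lid PSMD14 (1.54 ± 0.25, adjusted p = 0.00119) and the base subunit PSMD1 (1.51 ± 0.25, adjusted p = 0.00119) rose by similar amounts. All 4 grafts were above both naive arrays for PSMB2 and PSMB4, and graft 8 was the lowest graft for these as for PSMB8 (6.19) and PSMB10 (7.23). Core subunits, 15 of 16, were also higher at 24 h than in the 4 h grafts, as were 4 of the 22 regulators, against 9.61% of all genes. For most of its arrays that contrast cannot separate time from batch, and with the batch as a block it called none. Rises among subunits of the core numbered 7 without naive array 1. Rises among the regulators numbered 5 and 7 without naive array 1 or 2 in that order and 10 without graft 6. PSMB3 (0.0595) did not pass without naive array 1.

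**Figure D3:**
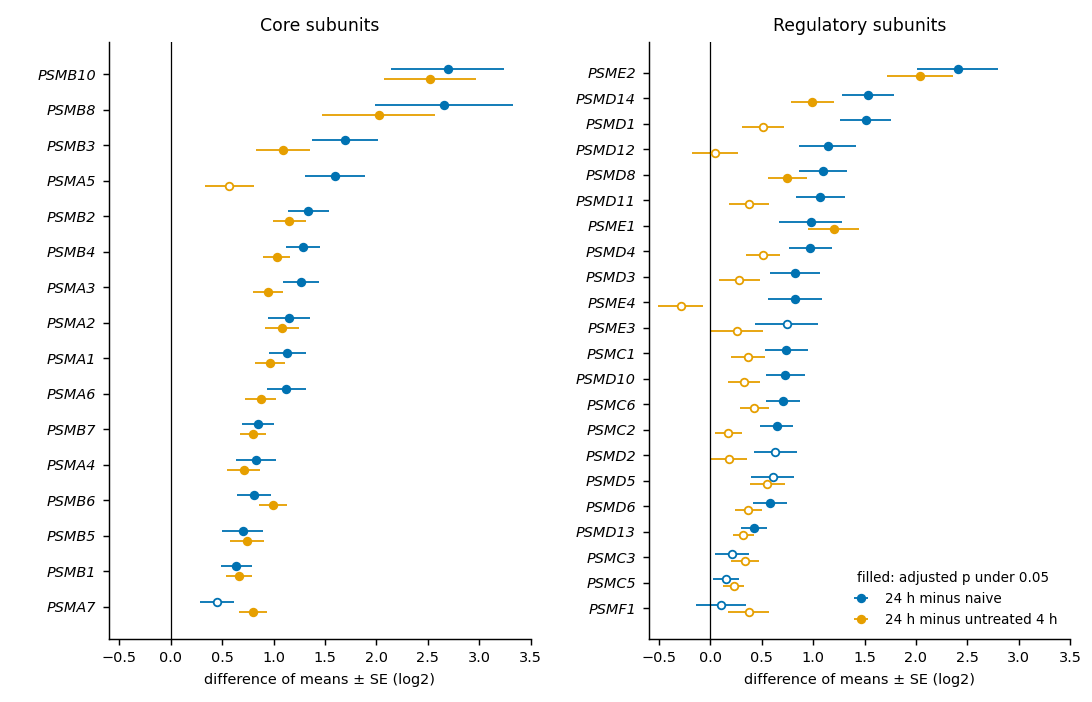
Difference in log2 level, with its standard error, of each measured subunit of the proteasome core (left) and of its regulators (right), for untreated 24 h grafts minus naive kidneys (blue) and minus untreated 4 h grafts (orange). Filled points passed an adjusted p under 0.05. Both comparisons share the 24 h arrays, and PSMB10 (2.69 and 2.53) lies highest in both.

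Leukocyte markers varied between the grafts. Of 27 macrophage, monocyte and dendritic cell genes 14 rose and none fell (median 1.76). The scavenger receptor CD163 was 3.25 and 4.06 on the naive arrays and 7.41, 8.23, 6.79 and 5.03 in the grafts of donors 5 to 8 (3.21 ± 0.73, adjusted p = 0.00781), and the adaptor TYROBP 3.76 and 4.90 in the naive kidneys, against 7.64, 8.45, 7.14 and 6.17 in grafts 5 to 8 (3.02 ± 0.73, adjusted p = 0.0116). Graft 8 was lowest for both and graft 6 highest. GPNMB, a lysosomal glycoprotein of phagocytes and injured cells, had another order, with 7.64 and 7.45 on the naive arrays and 10.46, 9.77, 10.34 and 11.23 in the grafts of donors 5 to 8 (2.90 ± 0.53, adjusted p = 0.00204), highest in graft 8. SRGN (3.15), LCP1 (2.87) and the myeloid factor SPI1 (2.54) rose. Rises among macrophage genes numbered 3 and 4 without naive array 1 or 2 in that order, 7 without graft 6 and 9 without graft 7. CD163 (0.119) and TYROBP (0.172) did not pass without naive array 1. SRGN (0.0753) did not pass without naive array 2. LCP1 (0.0535 to 0.127) did not pass without either naive array or graft 6. SPI1 (0.0569 to 0.226) did not pass without either naive array or graft 5, 6 or 7.

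Neutrophil genes gave 5 rises and 1 fall among 15 (median 0.70): beside ARG1 these were the oxidase subunits GP91-PHOX (3.31), NCF4 (1.93) and NCF1 (1.18) and the Fc receptor FCGR3A (2.62), while the oxidase subunit CYBA, which many cells express, fell (-1.66). The other 9 did not pass, among them S100A8, S100A9, LTF, TREM1, MMP9 and ALOX5AP, named after their values were seen. The granule protein gene S100A12, also among the 9, was below background in both groups. Of 24 T, NK and B cell genes 3 rose (median 1.03), a share near the 12.2% of all genes. They were IL2RG, CD3D (1.67) and CD38, which was at least 4.29-fold higher than in naive kidneys. The T, NK and B cell list mean above naive was 1.05, 1.22, 1.90 and 0.02 in grafts 5 to 8, so that graft 8 lay at the naive mean. Graft 8 is also the array with the high 28S and bioB readings, and the part of these in its low immune levels was not tested. Without graft 8 the T, NK and B cell median was 1.30, and the macrophage median was 2.12. Neutrophil genes gave 0 rises without naive array 1 and 2 without naive array 2 or graft 5 or 6, and for falls 0 without naive array 2 and 2 without graft 8. Rises among T, NK and B cell genes numbered 0 without either naive array or graft 5, 6 or 7 and 11 without graft 8. GP91-PHOX (0.161) and FCGR3A (0.17) did not pass without naive array 1. CYBA (0.0635) did not pass without naive array 2. NCF4 (0.0746 to 0.275), CD3D (0.0534 to 0.453) and CD38 (0.058 to 0.217) did not pass without either naive array or graft 5, 6 or 7. NCF1 (0.0524 to 0.205) did not pass without either naive array or graft 5, 6 or 8.

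**Figure D4:**
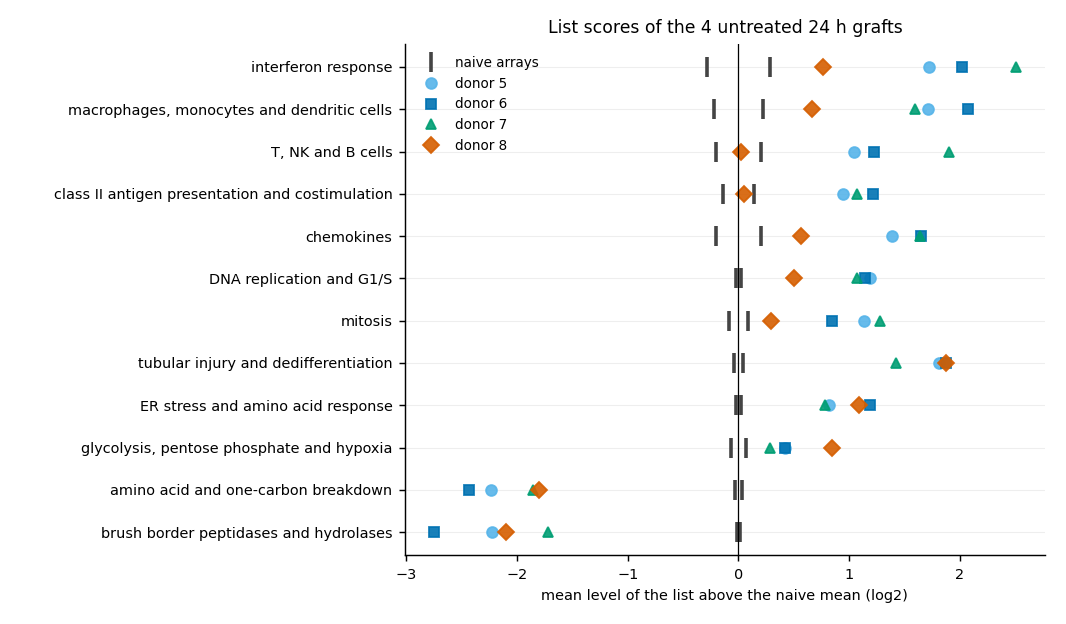
Mean level of each list above its mean in the naive kidneys, in log2 units, for the 4 untreated 24 h grafts (coloured symbols) and both naive arrays (grey bars). Graft 8 lies nearest to the naive arrays for the immune and cell cycle lists, at 0.77 against 1.72 to 2.5 for interferon genes, and among or beyond the other grafts for injury markers (1.88 against 1.42 to 1.87) and glycolysis (0.84 against 0.28 to 0.42).

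Plasma proteins that kidney also makes moved both ways. Of 42 complement and acute phase genes 4 rose and 2 fell (median 0.08, -0.001 with each array centred on its median), close to the background. CLU, the acute phase protein SAA2 (1.14) and complement factor B, CFB (0.64), rose, CD55, which protects cells from complement, was at least 3.47-fold higher, and APOM (-3.76 ± 0.52, adjusted p = 0.000393) and ITIH1 (-2.54 ± 0.40, adjusted p = 0.000968) fell. APOM, an apolipoprotein reabsorbed and made by the proximal tubule, read 8.08 and 8.56 in the naive kidneys, against 3.92, 4.45, 4.39 and 5.48 in grafts 5 to 8. Of 26 coagulation genes 4 rose and 5 fell (median 0.23). The integrin subunit ITGB3 was 2.81 and 3.31 on the naive arrays and 5.15, 6.09, 5.63 and 6.91 in the grafts of donors 5 to 8 (2.88 ± 0.43, adjusted p = 0.000589), highest in graft 8, and PLAU, the thrombin receptor F2RL2 (1.83) and ANXA5 (1.46) were the other rises. F9, KNG1, protein C, PROC (-2.62), and SERPIND1 (-1.46) were among the falls. Complement genes gave 1 rise without either naive array and 2 without graft 6, and for falls 5 without graft 8. Coagulation genes gave 1 rise without either naive array and 2 without graft 5 or 6, and for falls 1 without naive array 2 and 2 without naive array 1. SERPIND1 (0.313) did not pass without naive array 2. SAA2 (0.0722 to 0.0819) and F2RL2 (0.0947 to 0.141) did not pass without either naive array. CFB (0.054 to 0.29) did not pass without either naive array or graft 6. ANXA5 (0.0605 to 0.192) did not pass without either naive array or graft 5 or 6. CD55 (0.0516 to 0.183) did not pass without either naive array or graft 5, 6 or 7. PROC (0.069 to 0.377) did not pass whichever 1 of the 6 arrays was left out.

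Iron, heme and metal genes gave 2 rises, STEAP4 and the phagosomal metal carrier SLC11A1 (3.05), and 6 falls among 27 (median -0.22). TF, the metallothioneins MT1A (-2.30) and MT3 (-2.0 ± 0.31, adjusted p = 0.0009) and the zinc carrier SLC39A5 (-1.78) fell. HMOX1, the inducible heme oxygenase, read 5.32 and 6.21 in the naive kidneys, against 6.98, 7.45, 6.19 and 6.89 in grafts 5 to 8, a difference of 1.12 that did not pass (adjusted p = 0.0877), and graft 7 lay between the naive kidneys. The constitutive HMOX2 fell by 1.01 (adjusted p = 0.0133). In antioxidant defence 4 of 28 rose and 9 fell (median -0.28). NQO1, a quinone reductase controlled by NRF2, was 6.53 and 6.35 on the naive arrays and 9.72, 9.27, 8.71 and 9.32 in the grafts of donors 5 to 8 (2.82 ± 0.38, adjusted p = 0.000323), and TXNRD1, thioredoxin reductase, rose by 2.02. Catalase, CAT (-1.88 ± 0.35, adjusted p = 0.00256), methionine sulfoxide reductase, MSRA (-2.02 ± 0.34, adjusted p = 0.00125), NQO2 (-1.66 ± 0.24, adjusted p = 0.000483) and SELENBP1 (-2.37 ± 0.40, adjusted p = 0.0014) fell. Iron and metal genes gave 0 rises without either naive array and 1 without graft 5 or 6, and for falls 1 without either naive array. Rises among antioxidant genes numbered 2 without naive array 1. SLC39A5 (0.0586 to 0.0611) and HMOX2 (0.0885 to 0.114) did not pass without either naive array. SLC11A1 (0.0614 to 0.161) and TXNRD1 (0.0604 to 0.163) did not pass without either naive array or graft 5 or 6. MT1A (0.0561 to 0.226) did not pass without either naive array or graft 5, 6 or 7.

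Of 27 genes of endoplasmic reticulum (ER) stress and the amino acid response 14 rose and none fell (median 0.99). CRELD2, a secreted ER stress protein, was 3.77 and 3.98 on the naive arrays and 6.6, 7.10, 6.48 and 6.05 in the grafts of donors 5 to 8 (2.68 ± 0.46, adjusted p = 0.00143), and CEBPB, a transcription factor of that response and of inflammation, 5.47 and 5.13 in the naive kidneys, against 7.77, 8.22, 7.59 and 7.49 in grafts 5 to 8 (2.47 ± 0.48, adjusted p = 0.00311). SDF2L1 (1.82), ATF4 (1.51) and HYOU1 (1.49) rose, as did the amino acid response gene ASNS, asparagine synthetase (1.59). None of 24 heat shock genes passed (median 0.56), HSPA4 being nearest (1.43, adjusted p = 0.051). That count depended on the fit. When the spread was taken from the naive and untreated 24 h arrays alone, 8 rose and 0 fell. Array weights gave 9 rises and 1 fall. For 15 of the 24 genes the grafts did not overlap the naive kidneys, so the absence of calls does not show unchanged levels. Of 20 immediate early genes 3 rose and 1 fell: MYC, IER5 (1.84) and the ERK phosphatase DUSP6 (0.97), against the nuclear receptor NR4A2 (-2.18 ± 0.35, adjusted p = 0.00106). The share of rises was not far above the 12.2% of all genes, and that of falls lay below the 10.7%. Rises among ER stress genes numbered 2 and 4 without naive array 1 or 2 in that order and 8 without graft 6. Rises among heat shock genes numbered 1 without graft 8. Rises among immediate early genes numbered 1 without either naive array. SDF2L1 (0.211) did not pass without naive array 1. IER5 (0.0809 to 0.113) did not pass without either naive array. ATF4 (0.066 to 0.152) and DUSP6 (0.0542 to 0.188) did not pass without either naive array or graft 6. HYOU1 (0.0617 to 0.257) did not pass without either naive array or graft 5 or 6. ASNS (0.0631 to 0.261) did not pass whichever 1 of the 6 arrays was left out.

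Of 24 p53 targets and death genes 2 rose, CDKN1A and CASP1, and 3 fell, TP53I3 (-1.94 ± 0.23, adjusted p = 0.000144), RRM2B (-1.53) and SESN1 (-1.05), all of which p53 is known to induce. The share of rises lay below the 12.2% of all genes and that of falls near the 10.7%. Glycolysis, the pentose phosphate path and hypoxia gave 7 rises and 1 fall among 33 (median 0.31). SLC2A3, a glucose carrier of high affinity, was 3.01 and 3.70 on the naive arrays and 5.39, 6.35, 6.20 and 7.81 in the grafts of donors 5 to 8 (3.08 ± 0.73, adjusted p = 0.01), and it and LDHA were highest in graft 8. HK3 is a hexokinase of myeloid cells (3.46 at its brighter probe set, while another probe set was called lower), PGD belongs to the pentose phosphate path (1.45), and PFKP rose (1.08) while PFKM, the muscle form of the same enzyme, fell (-1.09). P53 targets gave 0 rises without either naive array, and for falls 1 without either naive array. Glycolysis and hypoxia genes gave 1 rise without naive array 1 and 2 without naive array 2, and for falls 0 without either naive array or graft 5, 6 or 7. SLC2A3 (0.0522 to 0.13) and PGD (0.0595 to 0.114) did not pass without either naive array. SESN1 (0.0584 to 0.21) did not pass without either naive array or graft 5. RRM2B (0.051 to 0.135) and HK3 (0.0575 to 0.213) did not pass without either naive array or graft 6. PFKM (0.058 to 0.205) did not pass without either naive array or graft 5, 6 or 7. PFKP (0.0537 to 0.273) did not pass whichever 1 of the 6 arrays was left out.

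Genes of the cell cycle rose in part. Of 22 replication and G1/S genes 9 rose and none fell (median 0.60), and of 30 mitotic genes 6 rose and none fell (median 0.90). MCM2, a subunit of the replicative helicase, read 4.16 and 4.30 on the naive arrays and 7.01, 7.02, 6.67 and 5.95 in the grafts of donors 5 to 8 (2.43 ± 0.34, adjusted p = 0.000466). RRM2, of the enzyme that makes deoxynucleotides, was 2.58 and 2.12 in the naive kidneys, against 6.08, 5.5, 5.62 and 3.81 in grafts 5 to 8 (2.91 ± 0.67, adjusted p = 0.00844), and ORC1, of the origin recognition complex, 1.90 and 1.73 in the naive kidneys, against 4.57, 4.91, 4.81 and 2.93 in grafts 5 to 8 (2.49 ± 0.49, adjusted p = 0.00353). Graft 8 was lowest for all 3. TYMS (1.99 ± 0.40, adjusted p = 0.00396), MCM5 (1.63) and MCM3 (1.53) also rose. Mitotic rises were TACC3 (1.82), CDKN3 (1.74), AURKA (1.43), CKS1B (1.07), BUB3 (0.73) and SPC25, which was at least 1.39-fold higher. The mitosis list mean above naive was 1.13, 0.85, 1.28 and 0.29 in grafts 5 to 8. Without graft 8 the replication median was 0.80 and the mitosis median 1.07. Rises among replication genes numbered 3 without naive array 2 and 4 without naive array 1. Rises among mitosis genes numbered 0 without naive array 2 and 1 without naive array 1. TYMS (0.0533) and CKS1B (0.0679) did not pass without naive array 2. RRM2 (0.0616 to 0.0912), MCM3 (0.0619 to 0.177), CDKN3 (0.0786 to 0.153), BUB3 (0.0618 to 0.101) and SPC25 (0.0634 to 0.21) did not pass without either naive array. MCM5 (0.0519 to 0.262) did not pass without either naive array or graft 5 or 6. TACC3 (0.101 to 0.284) and AURKA (0.0615 to 0.175) did not pass without either naive array or graft 5, 6 or 7.

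Of 67 genes whose symbol starts like that of a cytosolic ribosomal protein 9 rose and none fell (median 0.16), a share near the background of 12.2%, and the largest difference was that of RPS6KA1 (1.40), which is a kinase. RPL22L1 (1.15), RPL7L1 (0.93), RPL12 (0.58) and RPL4 (0.54) were among the others. Of 36 genes with the symbol of a translation initiation factor 10 rose, led by the helicase EIF4A1 (1.47 ± 0.27, adjusted p = 0.00228), EIF5B (1.43) and EIF3B (1.30). The 3 that fell were led by EIF4EBP2, which is a brake on cap binding (-1.55 ± 0.22, adjusted p = 0.000492). Of 58 mitochondrial ribosomal proteins 6 rose and 3 fell (median 0.08), shares below the 12.2% and 10.7% of all genes. Over all 120 genes with a solute carrier symbol 30 fell and 7 rose (median -0.19). The falls include SLC9A3R1, which is a scaffold and no carrier. The largest falls outside the lists above were those of SLC27A6, a fatty acid carrier (-3.77 ± 0.53, adjusted p = 0.000466), and SLC25A48, a mitochondrial carrier (-3.70 ± 0.50, adjusted p = 0.000365). Rises among genes with ribosomal names numbered 1 without either naive array, 4 without graft 6 and 5 without graft 7. Initiation factors gave 2 rises without naive array 1 and 4 without naive array 2, and for falls 1 without either naive array or graft 5. Mitochondrial ribosomal proteins gave 0 and 1 rises without naive array 1 or 2 in that order, 2 without graft 5 and 3 without graft 6 or 7, and for falls 0 without naive array 2 and 1 without naive array 1 or graft 6. Solute carriers gave 12 falls without naive array 1 and 14 without naive array 2, and for rises 1 without either naive array and 3 without graft 5 or 6. EIF5B (0.07) did not pass without naive array 1. RPL22L1 (0.0762 to 0.126) and RPL4 (0.0962 to 0.107) did not pass without either naive array. RPS6KA1 (0.0539 to 0.165) did not pass without either naive array or graft 6. EIF3B (0.0574 to 0.151) did not pass without either naive array or graft 5 or 6. RPL12 (0.0717 to 0.263) did not pass without either naive array or graft 5, 6 or 7.

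The vacuolar proton pump had 4 falls and 1 rise among 16 (median -0.61), with ATP6AP2 (-1.11) lower and ATP6V1B2 (0.79), an isoform of macrophages among other cells, higher. Of 5 annexins 3 rose, of 5 TNF receptors 3 and of 4 caspases 2, and none of these 3 families had a fall. S100 proteins gave 3 rises and 1 fall among 11, with S100A4 in front (3.18 ± 0.60, adjusted p = 0.00274). Among cathepsins CTSS and CTSK (1.42) rose and CTSV (-1.72 ± 0.32, adjusted p = 0.0025) fell, and of 12 interleukin receptors IL11RA alone fell (-1.41 ± 0.21, adjusted p = 0.000673). Of 30 Rab proteins 3 rose, among them RAB13 of tight junctions (1.18 ± 0.21, adjusted p = 0.00207), and 1 fell. Both shares lay below those of all genes, 12.2% and 10.7%. The proton pump gave 1 fall without either naive array or graft 6 and 2 without graft 7, and for rises 0 without either naive array or graft 5, 6 or 7. Rises among annexins numbered 1 without naive array 2. Rises among TNF receptors numbered 1 without naive array 1. Rises among caspases numbered 0 without either naive array and 1 without graft 6. S100 proteins gave 1 rise without either naive array or graft 5, 6 or 7, and for falls 0 without either naive array and 2 without graft 5. Rab proteins gave 1 rise without either naive array, and for falls 0 without either naive array and 2 without graft 8. ATP6AP2 (0.0775) did not pass without naive array 1. CTSK (0.0682 to 0.0709) did not pass without either naive array. ATP6V1B2 (0.054 to 0.16) did not pass without either naive array or graft 5, 6 or 7.

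Markers of other cells that a piece of kidney could hold were counted against the same 12.2% of rises and 10.7% of falls. Of 17 endothelial genes 2 rose, ANGPT2 (1.47) and PECAM1, and the lymphatic marker LYVE1 fell (-0.58), with a median of 0.28 and summed levels of 72.1 to 73.4 in naive kidneys and 71.2 to 85.8 in grafts. Of 18 fibroblast, pericyte and smooth muscle genes ACTA2 rose (2.05) and 3 fell, MFAP5 (-2.26 ± 0.46, adjusted p = 0.0042), MYL9 (-1.01) and SYNM (-0.67), with sums of 100.9 to 102.8 and 97.4 to 104.7. None of 4 urothelial and none of 7 erythroid or platelet genes passed, and UPK1A, AHSP and PPBP were below background in both groups. The adrenal genes CYP11A1, CYP17A1 and STAR were also below background in both, and of 9 measured HSD3B1 alone fell (-0.93). Of 9 fat genes 3 fell, DGAT2, of triglyceride synthesis (-3.22 ± 0.41, adjusted p = 0.000225), LPL (-1.57 ± 0.28, adjusted p = 0.00204) and PNPLA2 (-1.14 ± 0.20, adjusted p = 0.00151), while ADIPOQ was below background in both. The median difference of the fat list was 0.10, and 5 of its 9 genes lay above 0. Its summed level, which includes the 3 genes that fell, was 35.0 to 37.6 in naive kidneys and 29.2 to 33.2 in grafts. The part of fat tissue in the falls of lipid genes was not tested. Rises among endothelial genes numbered 0 without either naive array and 1 without graft 5 or 6. Fibroblast and smooth muscle genes gave 0 rises without either naive array or graft 5 or 6, and for falls 0 without naive array 1 and 1 without graft 7. MFAP5 (0.146) did not pass without naive array 1. ANGPT2 (0.0872 to 0.143) and LYVE1 (0.0534 to 0.196) did not pass without either naive array. SYNM (0.0535 to 0.328) did not pass without naive array 1 or graft 5 or 7. HSD3B1 (0.0571 to 0.356) did not pass without naive array 2 or graft 6 or 7. ACTA2 (0.0781 to 0.296) did not pass without either naive array or graft 5 or 6. MYL9 (0.0661 to 0.202) did not pass without either naive array or graft 6, 7 or 8.

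Whether a difference from naive had been reached by 4 h was tested by setting the 24 h grafts against the 4 untreated 4 h grafts, a contrast that holds no naive array but shares the 24 h arrays with the comparison above. Of 23999 probe sets 2332 passed (9.72%), and of genes 650 were higher at 24 h (9.61%) and 450 lower (6.65%). The 4 h graft of donor 1 was more like the naive kidneys (mean correlation 0.982) than like its own group (0.956). Without it 2928 probe sets passed, without that of donor 3 1574 and of donor 4 1548, and without 24 h grafts 5, 6 and 7 1563, 1320 and 1516. By the dates in the array names, the 4 h grafts of donors 1, 3 and 4 were in 1 batch, which held no 24 h graft. The remaining 4 h graft was in the batch of 24 h graft 5, and the other 24 h grafts were in another. For most of its arrays this contrast therefore cannot separate time from batch. With the batch as a block limma called none, the lowest adjusted p being 0.0941, while 1968 had an unadjusted p under 0.05.

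Some leading rises did not pass between the times, which does not show that their levels were alike. CCL2 was 4.77, 9.14, 9.98 and 8.74 in the 4 h grafts of donors 1 to 4 and differed by 0.92 ± 0.89, adjusted p = 0.602 between the times. TNFRSF12A (-0.30, adjusted p = 0.8), ZFAND2A (-0.03, adjusted p = 0.992), MYC (-0.01, adjusted p = 0.99) and CDKN1A (-0.47, adjusted p = 0.594) also did not pass, with standard errors of 0.42 to 0.96. In each of these the 4 h graft of donor 1 lay nearest to the naive kidneys. Other rises differed between the times. UBD was 5.90, 5.49, 5.06 and 4.2 at 4 h and higher at 24 h by 4.33 ± 0.60, adjusted p = 0.000549, and the 4 h range overlapped the naive one. NQO1 (3.44 ± 0.31, adjusted p = 3.52e-05), the RBP4 probe set of largest change (3.54 ± 0.57, adjusted p = 0.00133), MMP7 (3.22 ± 0.66, adjusted p = 0.00547), CLDN6 (2.95 ± 0.39, adjusted p = 0.000408), CCL8 (2.83 ± 0.63, adjusted p = 0.00924), GPNMB (2.61 ± 0.43, adjusted p = 0.00141) and MCM2 (2.55 ± 0.28, adjusted p = 0.00013) were higher at 24 h than at 4 h. MMP7 and CLDN6 stood between naive and 24 h levels at 4 h, with 5.27, 8.26, 8.97 and 9.49 for MMP7.

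Many leading falls also differed between the times. MIOX was 11.12, 10.93, 10.75 and 11.20 in the 4 h grafts, close to the naive 11.41 and 11.59, and lower at 24 h by -3.77 ± 0.40, adjusted p = 0.000101. F9 (-4.18 ± 0.72, adjusted p = 0.00189), DPYS (-4.14 ± 0.49, adjusted p = 0.000189), INMT (-3.88 ± 0.50, adjusted p = 0.000368), EGF (-3.66 ± 0.49, adjusted p = 0.000411) and TF (-3.53 ± 0.82, adjusted p = 0.0122) were lower at 24 h than at 4 h. CYP27B1 was 7.26, 6.83, 6.95 and 5.98 at 4 h, above both naive kidneys, and 3.57, 3.65, 3.86 and 3.51 at 24 h, below them, a difference of -3.11 ± 0.27, adjusted p = 3.52e-05. By list, 24 of 32 genes of amino acid breakdown and 11 of 13 brush border genes were lower at 24 h than at 4 h, against 6.65% of all genes. So were 8 of 12 gluconeogenic genes and 14 of 28 genes of fatty acid oxidation. Higher were 15 of 22 replication genes, 18 of 58 mitochondrial ribosomal proteins and 8 of 39 interferon genes, against 9.61% of all genes. Of 24 heat shock genes 6 were lower at 24 h (median -0.81).

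**Figure D5:**
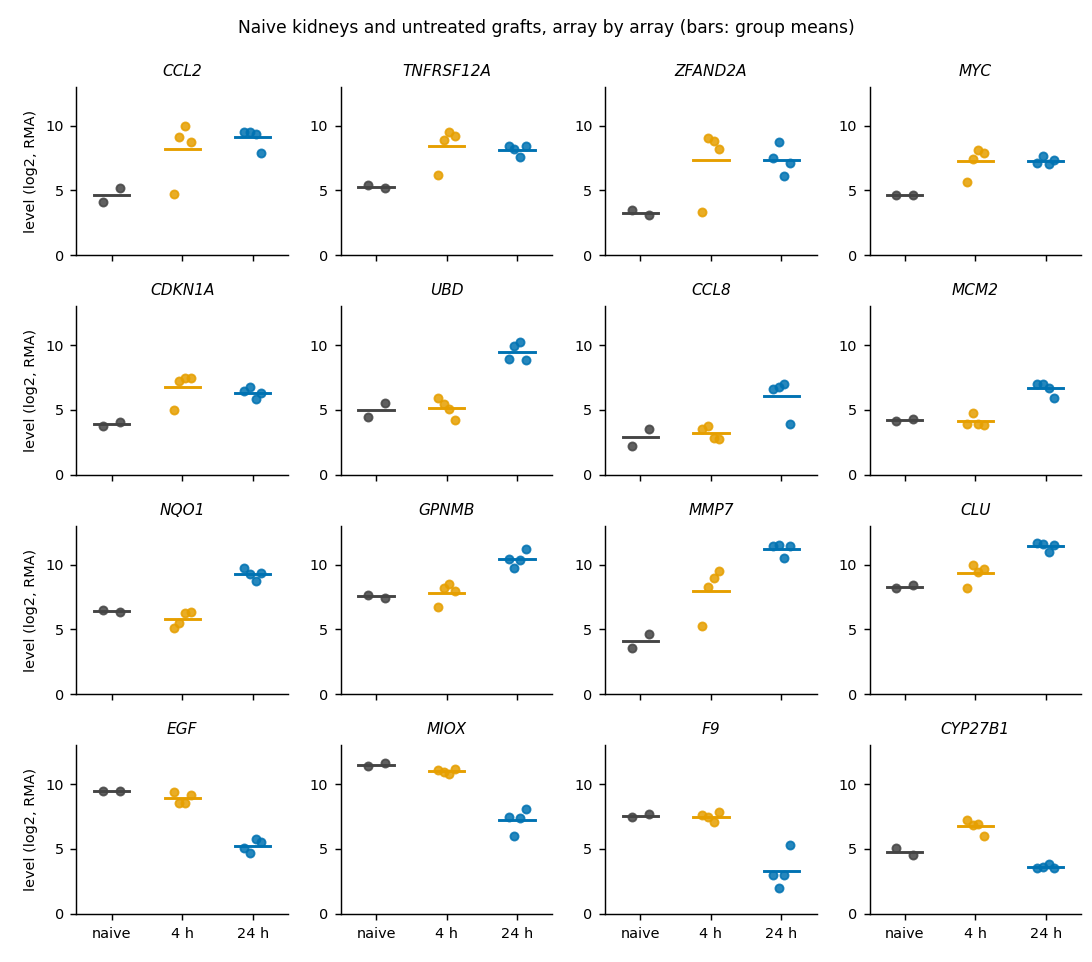
Level on each array, in log2 units after RMA, of 16 genes in naive kidneys (grey, 2 arrays), untreated grafts at 4 h (orange, 4 arrays, donors 1 to 4 from left to right) and untreated grafts at 24 h (blue, donors 5 to 8), with bars at group means and the brightest probe set of each gene. CCL2, TNFRSF12A, ZFAND2A, MYC and CDKN1A reach their 24 h range or above in 4 h grafts other than the leftmost, UBD, MCM2, NQO1 and GPNMB are high at 24 h, and CYP27B1 is at 6.75 on average at 4 h and at 3.65 at 24 h.

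Where a gene had several probe sets they did not always agree. Of 2261 genes with more than 1 probe set, 8 had probe sets called in opposite directions, SDHB and HK3 among them. RBP4, the plasma retinol carrier, was 8.66 and 8.09 on the naive arrays and 6.12, 6.54, 7.25 and 7.66 in the grafts of donors 5 to 8 at its brightest probe set (-1.48 ± 0.54, adjusted p = 0.0794) but 4.32 and 2.89 in the naive kidneys, against 9.17, 8.48, 8.15 and 7.78 in grafts 5 to 8 at another (4.79 ± 0.70, adjusted p = 0.000562), so no direction is given for the gene. The platform's annotation assigns both to RBP4.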

How the data were processed

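Total RNA of pig kidney was measured on Affymetrix arrays, 4 of untreated 24 h grafts, 2 of naive kidneys and 4 of untreated 4 h grafts being used here, and the grafts treated with carbon monoxide only in the estimate of the spread. The deposited values are on the log2 scale, and the submitters' processing notes name RMA, with no version. Of 24123 probe sets 124 controls were left out. Of the 23999 tested, 10069 have 1 symbol in the platform's annotation, 198 several and 13732 none, and only the first kind was named. A gene is represented by its brightest probe set over all 18 arrays. A level below 1.61, the 0.95 quantile of 17 tag controls, counts as background, and such genes get a bound ("at least"), computed against that level.

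A linear model with a mean for each group was fitted to all 18 arrays with limma 3.58.1 (R 4.3.3), with Benjamini-Hochberg adjustment over all probe sets of a comparison and a threshold of 0.05. The code was tested on simulated data. Sums and plots used Python 3.11.15, pandas 2.3.3, numpy 2.4.6 and matplotlib 3.10.9. The titles give each untreated graft a donor number of its own, but the naive kidneys only a replicate number, and nothing says that those are separate animals. Numbers in the array names of the naive kidneys recur in those of donor 4. The p-values measure the spread between these arrays, part of which may be technical.

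The members, lists and tests were chosen with earlier results of these data known. Named are the 15 largest rises and falls whose arrays do not overlap, up to 6 passing genes of each list or family (or the one of smallest p where none passed), the 10 largest rises and falls between 4 h and 24 h, and 12 genes of inflammation and oxygen response. Marker genes listed as below background, the neutrophil genes listed as not passing, CNDP2 and VIL1 were named after their values were seen. Other variance models, normalisations, weights, blocks and left-out arrays were tried.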

Additional observations from a re-analysis of the deposited data

Results flagged for a closer look

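In some cases 1 of the 4 untreated 24 h grafts stood apart, its gap to the nearest graft, as a share of the range of the 4, exceeding Dixon's critical value. This was met by 11 of 268 probe sets and 8 of 70 list means examined, and chance alone gives about 1 in 20. Each share given next is the gap over the range. Graft 5 was the highest of the 4 for NDUFV1 (0.894, at 7.78) and the mean of cytochrome c oxidase subunits (0.902, at -0.33). Graft 6 was the lowest of the 4 for ACOX2 (0.958, at 5.36) and CLCN5 (0.917, at 5.05). Graft 7 was the highest of the 4 for HNF4A (0.965, at 7.95) and LPL (0.844, at 3.41). Graft 7 was the lowest of the 4 for DUSP6 (0.883, at 7.75), MMP7 (0.869, at 10.48) and the mean of tubular injury and dedifferentiation (0.861, at 1.42). Graft 8 was the highest of the 4 for NOS2 (0.879, at 3.47), the mean of peroxisome and ketone metabolism (0.945, at -1.53), the mean of renal hormones, vasoactive enzymes and their receptors (0.876, at -0.23), the mean of adrenal gland (0.887, at 0.03) and the mean of collagens (0.852, at 0.26). Graft 8 was the lowest of the 4 for CCL2 (0.912, at 7.92), CCL8 (0.863, at 3.93), TACC3 (0.847, at 3.63), the mean of adhesion and leukocyte integrins (0.870, at 0.67) and the mean of proteasome core subunits (0.982, at 0.89). Levels of single genes are log2 values, and levels of list means are log2 units above the naive mean.

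For 2332 probe sets the change from naive differed between 24 h and 4 h, a contrast that is the same as 24 h against 4 h. Among the genes named above, these passed both against naive and against 4 h, while their 4 h mean lay on the other side of the naive mean. Higher at 24 h than at 4 h were CKS1B (1.11), HMGB1 (0.91), MCM2 (2.55), MCM3 (1.83), MCM5 (1.80), NQO1 (3.44) and TYMS (2.17). Lower at 24 h were ACE (-1.53), CYP27B1 (-3.11), PDK4 (-3.26) and SYNM (-0.93). The fitted differences of SPC25 (1.06) and HPD (-3.82) include a group mean below background and are no measured folds. With the batch as a block none of these 2332 passed.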

How the results depend on the processing

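Against naive, 3494 probe sets passed in the fit reported above. Between 3388 and 4297 passed with an intensity trend, a robust variance model, only the compared groups or no dim probe sets. Quantile normalisation again, centred arrays and the batch as a random block gave counts in the same range. With array weights 7744 passed. With the batch as a fixed block 159 did, 29.6% of them higher against 46.6% as reported. Leaving out 1 array gave 903 to 4197, lowest without naive array 1 (33.0% higher). Between 24 h and 4 h, 2332 passed as reported, 1462 with only the compared groups, 4978 with array weights and 0 with the batch as a fixed block (limma, 1968 at an unadjusted p under 0.05), and 1320 to 2928 with 1 array left out. A replicate block on the donor number gave 3526 and 2365, and no naive array shares a donor number with a graft. Of 316 passing probe sets of named genes, 113 still passed whichever of the 6 arrays was left out, 184 were lost without naive array 1 and 156 without naive array 2. Within the batch of graft 5 and naive array 2, SCNN1A differed by 0.081, against its reported fall, and the other 315 kept their sign. Both arrays are part of the reported comparison, and where grafts and naive arrays do not overlap that sign was fixed in advance. Setting levels under background to it moved list medians by at most 0.139. The medians of 5 of 80 lists changed sign under another scaling: complement and acute phase, erythroid cells and platelets, integrins, matrix metalloproteases and Rab proteins. The causes were not tested, and 2 naive arrays limit the precision.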
